A study of Rattus norvegicus with 8 samples.

Results

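Interleukin receptors are assembled from protein chains, some of them shared between several receptors, and the genes of 10 chains were followed in rat peritoneal macrophages. They were Il4r, Il13ra1, Il2rg, Il10ra, Il10rb, Il6st, Il1r1, Il1r2, Il1rl1 and Il17ra, selected by symbol among the 23487 genes of the deposited table. The study compared female Wistar rats aged 8 weeks that received an intraperitoneal injection of multi-walled carbon nanotubes. CNT-7 (MWCNT-XNRI-7) are needle-like nanotubes that induce mesothelioma, the cancer of the lining of the body cavities, whereas CNT-T are tangled nanotubes that do not. Macrophages of 4 CNT-7-treated rats (numbers 3, 5, 10 and 11) and 4 CNT-T-treated rats (numbers 1, 2, 12 and 13) were sorted by flow cytometry 15 days after injection, and the RNA of each rat was sequenced. Untreated rats were not analysed here, so every difference is between the particles. The libraries of the CNT-7-treated rats held 27394995 to 30215063 counts, and those of the CNT-T-treated rats 27195157 to 33732981. Levels are given in CPM, the count of a gene scaled to the same library size in every rat, and 3 counts, the smallest level regarded as detectable, corresponded to between 0.0887 and 0.109 CPM.

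The chains belong to families that differ in how they signal. IL-4Rα (Il4r) binds IL-4 and pairs either with the common gamma chain (Il2rg) or with Il13ra1, and the latter pair also receives IL-13. These receptors, and those of IL-10 (Il10ra with Il10rb) and of the IL-6 family (Il6st, or gp130), act through Janus kinases and STAT factors, with STAT6 typical of IL-4 and STAT3 of IL-10 and IL-6. The IL-1 receptor (Il1r1) and the IL-33 receptor (Il1rl1, or ST2) instead recruit MyD88, Il1r2 captures IL-1 without signalling, and Il17ra is the chain shared by the receptors of the IL-17 family. In macrophages, IL-4 and IL-13 are known for the alternatively activated state and IL-10 for restraint of inflammatory genes.

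Among the 10 genes, 9 passed the filter on low counts. Il4r, Il10rb and Il1rl1 were higher after CNT-7 and Il13ra1 was lower at an adjusted p-value under 0.10 in edgeR's quasi-likelihood test, the threshold used throughout, and 5 were not called. Calls were also frequent in the whole table, where 27.9% of the 12124 tested genes were called, 13.9% higher and 14.0% lower after CNT-7. The groups did not overlap for 2 of the 9 genes, Il4r and Il10rb, compared with 24.9% of all tested genes. Expressed as CNT-7 over CNT-T, the log2 fold changes (log2FC) of the 9 genes lay between -0.38 and 1.07. Their median was 0.14, beside 0.0083 over all tested genes. These counts were not used to set the receptors apart from other genes, and each receptor is described by its own values.

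**Figure D1:**
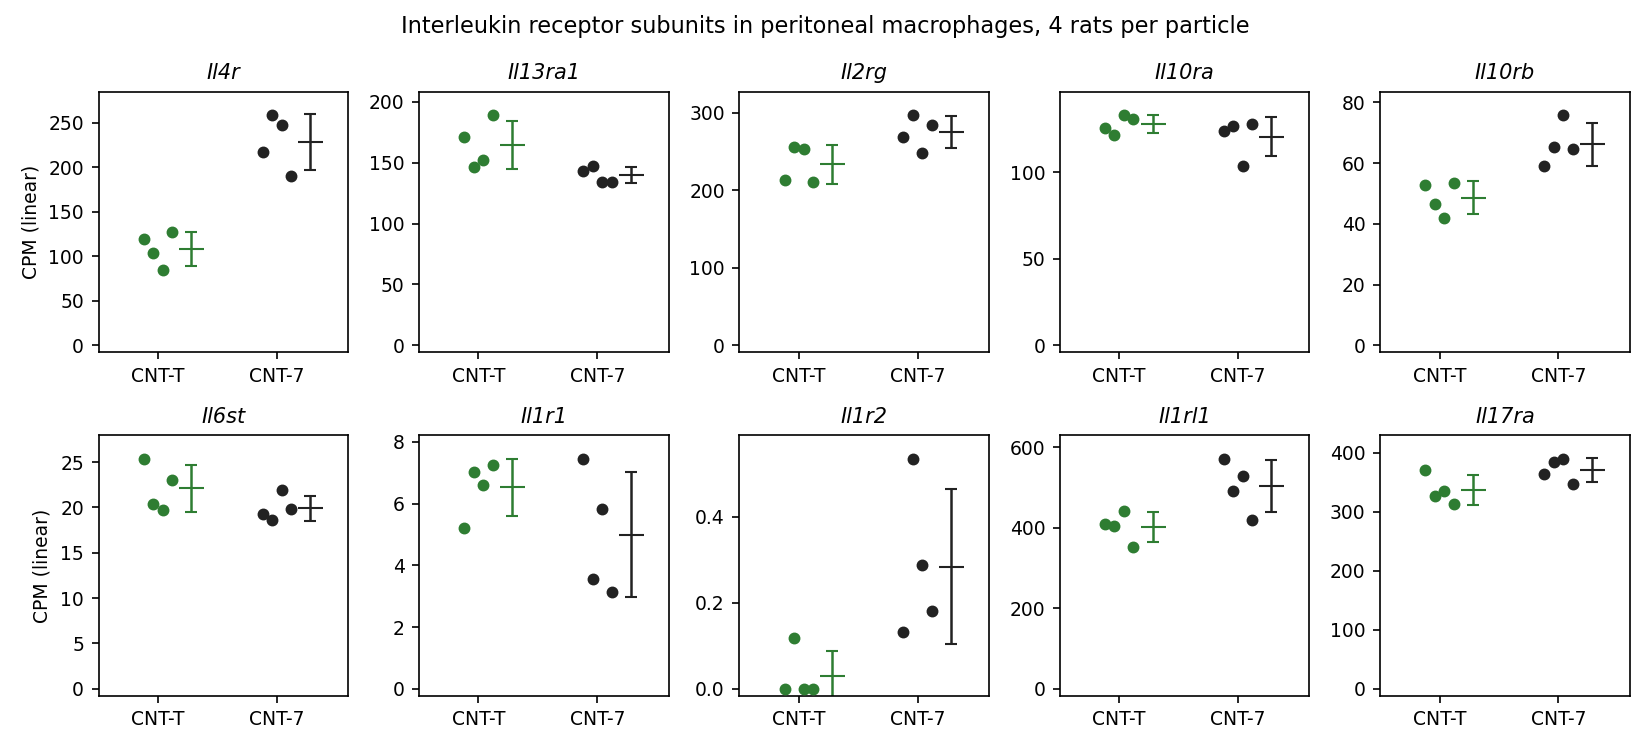
Level of each interleukin receptor gene in CPM (linear scale) in macrophages from 4 CNT-T-treated rats (green) and 4 CNT-7-treated rats (black), with 1 point per rat in order of rat number and the mean ± SD beside the points (the lower bar of Il1r2 after CNT-T is cut at the axis). The groups are apart for Il4r and Il10rb, and also for Il1r2, where the nearest rats of the groups have 4 counts each and 3 of the 4 CNT-T-treated rats have 0.

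The largest difference among the tested receptors was in Il4r (ENSRNOG00000015441). Its level was 217, 259, 248 and 189.8 CPM in CNT-7 rats 3, 5, 10 and 11, and 119, 104, 84.1 and 127 CPM in CNT-T rats 1, 2, 12 and 13. Every CNT-7-treated rat was thus above every CNT-T-treated rat, and the distance between the nearest rats of the groups, CNT-7 rat 11 and CNT-T rat 13, exceeded the SD of either group. The means were 228 ± 31.3 CPM in CNT-7-treated and 109 ± 19.0 CPM in CNT-T-treated rats (SD, n = 4 each), a 2.10-fold difference (log2FC 1.07, standard error (SE) 0.14, adjusted p = 0.0011). Because RNA was taken from the sorted population as a whole, a larger share of cells with the transcript and more transcript per cell cannot be told apart, here or for the other genes.

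The chains that pair with IL-4Rα differed less between the particles. Il13ra1 (ENSRNOG00000001713) had 143, 147, 134 and 134 CPM in CNT-7 rats 3, 5, 10 and 11, and 171, 146, 152 and 189 CPM in CNT-T rats 1, 2, 12 and 13. CNT-7 rat 5 lay just above CNT-T rat 2, so the groups overlapped, and the spread was larger after CNT-T (coefficient of variation 11.8%) than after CNT-7 (4.65%). The log2FC was -0.24 (SE 0.09, adjusted p = 0.0948). This call was lost when any rat other than CNT-T rat 2 was left out, with log2FC values between -0.28 and -0.17 and adjusted p-values between 0.103 and 0.191. It was also lost without a filter on low counts, with at least 10 counts required in every rat, and with a term for the range of rat numbers.

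Il2rg (ENSRNOG00000003954), which the receptors of several other interleukins share, had 269, 297, 248 and 285 CPM in CNT-7 rats 3, 5, 10 and 11. In CNT-T rats 1, 2, 12 and 13 it had 213, 256, 253 and 211 CPM. The lowest CNT-7 rat, number 10, was below CNT-T rats 2 and 12, and the gene was not called (log2FC 0.24, 95% interval 0.03 to 0.45, adjusted p = 0.106). With DESeq2 the adjusted p was 0.0947, and it was 0.0786 without CNT-7 rat 10 and 0.0909 without CNT-T rat 2, which puts Il2rg at the edge of the threshold.

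The balance of both partner chains was compared within each rat, where library size cancels. The log2 ratio of Il2rg to Il13ra1 counts was 0.91, 1.01, 0.89 and 1.08 in CNT-7 rats 3, 5, 10 and 11, and 0.31, 0.81, 0.73 and 0.16 in CNT-T rats 1, 2, 12 and 13. All 4 CNT-7-treated rats were above all 4 CNT-T-treated rats, which were also the more variable. The means were 0.98 ± 0.09 and 0.50 ± 0.32 (SD, n = 4 each), a difference of 0.47 (exact permutation test, 70 divisions of the rats, two-sided p = 0.0286, the smallest this design can give, and 0.0286 after adjustment over the 2 ratios tested). Without any one of the CNT-7-treated rats p was 0.0857, with differences between 0.44 and 0.50.

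Of the chains of the IL-10 receptor, Il10rb was called and Il10ra was not. Il10rb (ENSRNOG00000028638), the signalling partner that the receptors of IL-22 and the lambda interferons also use, had 59.0, 65.3, 75.9 and 64.5 CPM in CNT-7 rats 3, 5, 10 and 11. Its level was 52.8, 46.6, 41.9 and 53.4 CPM in CNT-T rats 1, 2, 12 and 13. CNT-7 rat 10 was the highest and CNT-T rat 12 the lowest, and the groups did not overlap. The means were 66.2 ± 7.05 and 48.7 ± 5.42 CPM (SD, n = 4 each), a 1.36-fold difference (log2FC 0.44, SE 0.10, adjusted p = 0.0138).

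Il10ra (ENSRNOG00000016308), which binds IL-10 itself, had 124, 126, 104 and 128 CPM in CNT-7 rats 3, 5, 10 and 11, and 126, 121, 133 and 130.5 CPM in CNT-T rats 1, 2, 12 and 13. All rats except CNT-7 rat 10 lay between 121 and 133 CPM. It was not called (log2FC -0.08, 95% interval -0.27 to 0.10, adjusted p = 0.520), and the interval leaves room for a small difference either way. Whether the difference in Il10rb exceeded that in Il10ra was not tested.

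Il6st (ENSRNOG00000013963), which transmits the signal of IL-6 and its relatives, had between 18.7 and 21.9 CPM in the CNT-7-treated rats and between 19.7 and 25.4 CPM in the CNT-T-treated rats. CNT-T rats 1 and 13 were above all CNT-7-treated rats, and the other CNT-T-treated rats were among them. It was not called (log2FC -0.15, 95% interval -0.38 to 0.07, adjusted p = 0.333; log2FC -0.08 without CNT-T rat 1). Il6r, the chain that binds IL-6, was not called either, with 177 ± 16.2 and 198 ± 18.0 CPM (SD, n = 4 each; log2FC -0.17, adjusted p = 0.244). Its log2FC was -0.11 without CNT-7 rat 10.

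Of the receptors for IL-1, the signalling chain Il1r1 (ENSRNOG00000014504) had 7.46, 3.55, 5.81 and 3.15 CPM in CNT-7 rats 3, 5, 10 and 11, from 227, 106, 161 and 87 counts. CNT-T rats 1, 2, 12 and 13 had 5.22, 7.04, 6.59 and 7.23 CPM, from 160, 238, 200 and 202 counts. CNT-7 rat 3 was the highest of all rats while CNT-7 rats 5 and 11 were the lowest, so that the coefficient of variation was 40.4% after CNT-7 and 13.9% after CNT-T. With this spread the gene was not called (log2FC -0.38, 95% interval -0.98 to 0.21, adjusted p = 0.357), nor with any rat left out. Its log2FC was -0.64 without CNT-7 rat 3 (adjusted p = 0.1045), -0.25 without CNT-7 rat 5 and -0.22 without CNT-7 rat 11.

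The decoy receptor Il1r2 (ENSRNOG00000014378) was close to the limit of detection. It had 4, 16, 8 and 5 counts in CNT-7 rats 3, 5, 10 and 11, and 0, 4, 0 and 0 counts in CNT-T rats 1, 2, 12 and 13. CNT-7 rat 3 and CNT-T rat 2 had the same count, and the totals were 33 counts after CNT-7 and 4 after CNT-T. The gene did not pass the filter on low counts and was not tested in the main comparison. When every gene with a count was tested, its log2FC was 3.003 (SE 0.99) with an adjusted p of 0.0686 in edgeR, and 3.19 (SE 1.24) with an adjusted p of 0.0476 in DESeq2.

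Relative to the signalling receptor within the same rat, the decoy was more frequent after CNT-7. The log2 ratio of Il1r2 to Il1r1 counts, with 0.5 added to each, was -5.66, -2.69, -4.25 and -3.99 in CNT-7 rats 3, 5, 10 and 11, and -8.33, -5.73, -8.65 and -8.66 in CNT-T rats 1, 2, 12 and 13. CNT-7 rat 3 and CNT-T rat 2 nearly met, and the remaining rats were well apart. The difference between the means was 3.69 (exact permutation test, two-sided p = 0.0286, 0.0286 after adjustment over the 2 ratios). Its size depends on the value added, because 3 CNT-T-treated rats had no count, and it was 2.36 with 2 added. Without any one CNT-7-treated rat, CNT-T rat 12 or CNT-T rat 13, p was 0.0571.

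Il1rl1 (ENSRNOG00000014835), the receptor of the alarmin IL-33, had 572, 492, 528 and 419.7 CPM in CNT-7 rats 3, 5, 10 and 11, and 409.8, 404, 443 and 353 CPM in CNT-T rats 1, 2, 12 and 13. CNT-7 rat 11 was below CNT-T rat 12, and the other 3 CNT-7-treated rats were above all CNT-T-treated rats. The means were 503 ± 64.5 and 403 ± 37.0 CPM (SD, n = 4 each), a 1.25-fold difference (log2FC 0.32, SE 0.11, adjusted p = 0.0644). Leaving out CNT-7 rat 3, 5 or 10, or CNT-T rat 1, 2 or 13, ended the call, with adjusted p-values between 0.101 and 0.159. Mast cells are another known source of this receptor, and the sum of the 8 mast cell markers in the table, led by Cpa3, was 0.657 to 1.92 CPM after CNT-7 and 0.0296 to 2.51 CPM after CNT-T. None of the 8 was at 0 in every rat, and the part of mast cells in the values of Il1rl1 was not tested.

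Il17ra (ENSRNOG00000011153) had 364, 385, 390.4 and 346 CPM in CNT-7 rats 3, 5, 10 and 11, and 372, 326, 335 and 313 CPM in CNT-T rats 1, 2, 12 and 13. CNT-T rat 1 was within the CNT-7-treated rats and the other CNT-T-treated rats were below them. The gene was not called (log2FC 0.14, 95% interval -0.03 to 0.32, adjusted p = 0.236). Its partner in the receptor of IL-17A, Il17rc, had 0.606 and 0.727 CPM on average and was not called (log2FC -0.26, adjusted p = 0.663). CNT-T rat 1 had its highest level, 1.21 CPM, and without that rat the log2FC was 0.09.

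The other chains with which these receptors combine, and further interleukin receptors, were examined as a list of 33 genes, of which 19 were tested. After CNT-7, 8 were higher (42.1%, beside 13.9% of all tested genes) and 1 was lower (5.26%, beside 14.0%), with a median log2FC of 0.24 beside 0.0083 over all tested genes. With at least 10 counts required in every rat, 15 were tested, 7 were higher and 1 was lower. The list was chosen with earlier results of these data known, so its share beside that of all genes is not a test. Csf2rb, the beta chain common to the receptors of IL-3, IL-5 and GM-CSF, had 1330, 1879, 2191 and 1335 CPM in CNT-7 rats 3, 5, 10 and 11, and 1001, 888, 676 and 728 CPM in CNT-T rats 1, 2, 12 and 13. The groups did not overlap, and the log2FC was 1.03 (SE 0.19, adjusted p = 0.0050). Il20rb, a chain of the receptors of IL-19, IL-20 and IL-24, changed to a like extent, with 152 to 222 CPM in CNT-7-treated and 82.4 to 108 CPM in CNT-T-treated rats (log2FC 0.97, adjusted p = 0.0012). Other chains of these receptors, Il20ra and Il22ra1, had at most 4 and 10 counts in any rat and did not pass the filter on low counts.

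Among receptors that use the common gamma chain, Il21r was higher after CNT-7, with 8.44 ± 2.40 against 4.27 ± 0.963 CPM (SD, n = 4 each; log2FC 0.98, adjusted p = 0.0163). Il7r was also called, but CNT-7 rat 11 had 11.6 CPM and CNT-T rat 13 had 11.7 CPM, and values within a group differed widely (11.6 to 52.8 CPM after CNT-7 and 0.989 to 11.7 CPM after CNT-T; log2FC 2.56, SE 0.75, adjusted p = 0.0384). Il2ra had 14, 64, 16 and 16 counts in CNT-7 rats 3, 5, 10 and 11 and at most 6 in any CNT-T-treated rat (log2FC 3.61, SE 0.76, adjusted p = 0.0093). Il2rb had its highest level, 2.14 CPM, in the same CNT-7 rat 5 and was not called (log2FC 1.99, adjusted p = 0.141). Its log2FC was 1.07 without that rat and 3.25, with a call, without CNT-T rat 2, and it was also called in DESeq2. The T cell gene Cd3e had 10, 63, 14 and 8 counts in CNT-7 rats 3, 5, 10 and 11. In CNT-T rats 1, 2, 12 and 13 it had 2, 4, 7 and 1 counts, so the groups did not overlap. Cd3e did not pass the filter on low counts, and the part of T cells in these values was not tested.

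Il15ra, which presents IL-15, was the only receptor of the list called lower with all rats (Il3ra was also lower without CNT-T rat 13). It had 16.3, 16.6, 17.0 and 21.0 CPM in CNT-7 rats 3, 5, 10 and 11, and 35.1, 34.9, 34.1 and 34.3 CPM in CNT-T rats 1, 2, 12 and 13. The CNT-T-treated rats were nearly identical, and all were above the CNT-7-treated rats (log2FC -0.96, SE 0.09, adjusted p = 0.00028).

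The IL-1 family gave 3 further calls. Il1rap, the accessory chain of both Il1r1 and Il1rl1, had 21.8, 23.6, 40.6 and 20.2 CPM in CNT-7 rats 3, 5, 10 and 11 and between 15.1 and 18.4 CPM in the CNT-T-treated rats (log2FC 0.61, SE 0.21, adjusted p = 0.0652). CNT-7 rat 10 stood above the rest, and the call was lost without CNT-T rat 2, 12 or 13. Without CNT-7 rat 10 itself, the log2FC was 0.33. Il18r1, the binding chain for IL-18, had 54.9 to 80.0 CPM after CNT-7 and 32.4 to 47.5 CPM after CNT-T (log2FC 0.79, SE 0.14, adjusted p = 0.0043). Il18rap, its accessory chain, was highest in CNT-7 rat 3 (18.4 CPM), the other CNT-7-treated rats had 4.995 to 6.03 CPM, and the CNT-T-treated rats had 1.37 to 2.81 CPM (log2FC 2.24, adjusted p = 0.0083; 1.57 without CNT-7 rat 3).

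**Figure D2:**
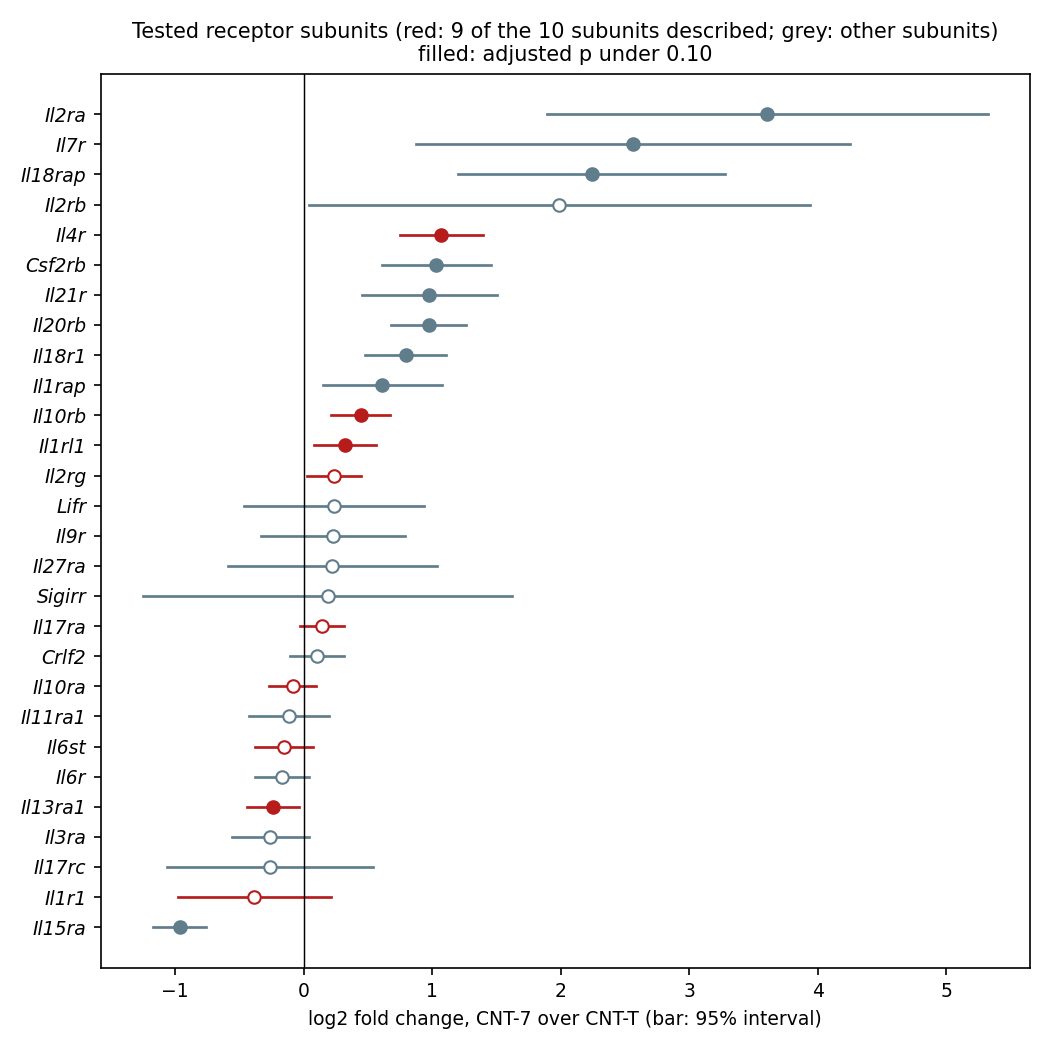
Log2 fold change (log2FC) of CNT-7 over CNT-T with its 95% interval (horizontal axis) for each tested interleukin receptor gene (vertical axis), with 9 of the 10 receptors described in red, other receptors in grey, and filled points for an adjusted p-value under 0.10. Il4r lies beside Csf2rb, Il21r and Il20rb near 1, while most of the genes in red lie within 0.5 of zero.

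Few ligands of these receptors could be tested in the sorted cells. Of 33 interleukins and related cytokines, 11 had no count in any rat and 13 were tested, of which 2 were higher and 2 lower after CNT-7 (15.4% each, beside 13.9% and 14.0% of all tested genes), or 6 and 1 without CNT-T rat 13. Il4 had 4 counts in CNT-7 rat 3 and none in the other 7 rats. Il13 had at most 2 counts in a rat, Il10 at most 11, and Il17a none in any rat. These genes did not pass the filter on low counts, and cytokines made by other cells of the cavity were not analysed here.

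Il6 had 13, 11, 12 and 8 counts in CNT-7 rats 3, 5, 10 and 11, and 0, 3, 0 and 3 in CNT-T rats 1, 2, 12 and 13. All CNT-7-treated rats were above all CNT-T-treated rats, but the gene was below the filter. Without the filter its log2FC was 2.85 (SE 0.76, adjusted p = 0.0284). Il1b was higher after CNT-7, with 1.45 ± 0.381 against 0.230 ± 0.119 CPM (SD, n = 4 each; log2FC 2.61, SE 0.39, adjusted p = 0.0020) and no overlap.

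Il1a was highest in CNT-7 rat 11 (4.02 CPM), but CNT-T rat 13 had 3.62 CPM and the other CNT-T-treated rats had 0.685 to 0.916 CPM, and it was not called (log2FC 1.11, adjusted p = 0.172). Without CNT-T rat 13 the log2FC was 2.00 and the gene was called. The antagonist Il1rn had 56.6 ± 5.57 and 48.1 ± 5.67 CPM (SD, n = 4 each) and was not called (log2FC 0.24, adjusted p = 0.138), but it was called without CNT-7 rat 10 (log2FC 0.30) and without CNT-T rat 1 (log2FC 0.32). Il33, the ligand of Il1rl1, had 0.471 to 1.52 CPM after CNT-7 and 0.264 to 0.522 CPM after CNT-T. The groups overlapped, and its call (log2FC 1.31, adjusted p = 0.0487) was lost without CNT-7 rat 3 or 10 or CNT-T rat 2 or 12. Il23a was lower (log2FC -1.71, adjusted p = 0.0116), as was Il18 (log2FC -0.31, adjusted p = 0.0656), whose call was lost without CNT-7 rat 3, 5 or 11 or CNT-T rat 12 or 13.

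Genes that carry or limit the receptor signal were examined next. Of 12 Janus kinase, STAT and IRS genes tested, 2 were higher (16.7%, beside 13.9% of all tested genes) and none was lower (14.0% of all tested genes were), with a median log2FC of 0.05. Jak2 had 138, 126, 119 and 108 CPM in CNT-7 rats 3, 5, 10 and 11, and 89.7, 75.6, 83.1 and 77.4 CPM in CNT-T rats 1, 2, 12 and 13. The groups did not overlap (log2FC 0.59, SE 0.09, adjusted p = 0.0024). Jak3, the kinase bound to the common gamma chain, had 12.3 to 15.3 CPM after CNT-7 and 5.34 to 9.85 CPM after CNT-T (log2FC 0.87, adjusted p = 0.0099). Stat6 and Stat3, singled out after their values were seen, were not called, with log2FC values of 0.17 (adjusted p = 0.152) and 0.24 (adjusted p = 0.130). Both were called when CNT-T rat 1 was left out, which made 4 calls among the 12 genes, and Irs2 was called lower when CNT-T rat 12 was left out.

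Of 16 inhibitors of cytokine signalling, all tested, 3 were higher (18.8%, beside 13.9% of all tested genes) and none was lower, and the median log2FC was 0.05. The 3 genes, Cish, Socs1 and Socs3, are members of the SOCS family known to be induced by STAT factors and to shut off the receptors in feedback. The other 5 members, Socs2 and Socs4 to Socs7, were not called with all rats (log2FC values from -0.02 to 0.86), and Socs2 was called in DESeq2 and without CNT-T rat 12. Cish had 14.4, 21.1, 24.3 and 10.2 CPM in CNT-7 rats 3, 5, 10 and 11, and 1.76, 2.16, 1.68 and 0.680 CPM in CNT-T rats 1, 2, 12 and 13 (log2FC 3.46, SE 0.36, adjusted p = 0.00040). Socs3 had 21.7, 34.8, 42.0 and 19.8 CPM in the same CNT-7-treated rats and 5.41, 3.61, 1.61 and 4.15 CPM in the CNT-T-treated rats (log2FC 2.999, SE 0.36, adjusted p = 0.00073). For both genes the groups did not overlap and CNT-7 rats 5 and 10 were the highest, as they were for Il4r. Socs1 had 2.13 to 4.02 CPM after CNT-7 and 0.297 to 0.913 CPM after CNT-T (log2FC 2.45, adjusted p = 0.0018).

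Of 14 adaptors and kinases downstream of the IL-1, IL-33 and IL-17 receptors, 13 were tested, 2 were higher (15.4%, beside 13.9% of all tested genes) and none was lower, with a median log2FC of 0.03. Myd88 had 69.4 to 87.4 CPM after CNT-7 and 57.1 to 65.0 CPM after CNT-T (log2FC 0.39, SE 0.08, adjusted p = 0.0092). Irak3, an inhibitory member of its family, was called with an overlap of the groups (log2FC 0.26, adjusted p = 0.0762), and the call was lost without a filter on low counts and without CNT-7 rat 3, 5 or 11 or CNT-T rat 2, 12 or 13. Traf3ip2, the adaptor bound by Il17ra, had 33 counts after CNT-7 and 9 after CNT-T and did not pass the filter. When every gene with a count was tested, its log2FC was 1.90 (SE 0.49, adjusted p = 0.0238), and it was 1.96 (adjusted p = 0.0493) in DESeq2.

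Genes known to respond to the cytokines of these receptors formed the next lists. Of 23 genes known to rise in macrophages given IL-4 or IL-13, 18 were tested, of which 14 were higher after CNT-7 (77.8%, beside 13.9% of all tested genes) and none was lower, with a median log2FC of 1.04 beside 0.0083 over all tested genes. Between 13 and 15 were higher with 1 rat left out at a time, and 9 remained past the threshold when at least a 2-fold change was also required. Of the called genes, Ccl22 and Pparg had at most 11 and 4 counts in any CNT-T-treated rat. They passed the filter on low counts through the CNT-7-treated rats. With at least 10 counts required in every rat, 16 genes of the list were tested and 12 were higher. Some genes of the list also respond to other stimuli, and Irf4 is used as a marker of a monocyte-derived macrophage population in the cavity, so the count does not measure IL-4 signalling by itself. The list was chosen with earlier results of these data known, so its share beside that of all genes is not a test. The dendritic cell markers Ccr7 and Clec9a were also higher (log2FC values 3.80 and 1.76), whereas Zbtb46 was not called (log2FC -0.22). The part of dendritic cells in this list was not tested.

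Tgm2, a transglutaminase, had 3215, 5434, 9514 and 3044 CPM in CNT-7 rats 3, 5, 10 and 11, and 149, 530.3, 273 and 301 CPM in CNT-T rats 1, 2, 12 and 13 (log2FC 4.08, SE 0.49, adjusted p = 0.00072). The chemokine gene Ccl17 had 33.8, 11.5, 20.4 and 9.09 CPM in the same CNT-7-treated rats and at most 2.81 CPM in a CNT-T-treated rat (log2FC 3.52, SE 0.49, adjusted p = 0.0015). Ccl22, a chemokine with the same receptor, was lowest among CNT-7-treated rats in rat 11, where its 0.941 CPM was still above all CNT-T-treated rats, which had at most 0.325 CPM (log2FC 5.67, SE 0.95, adjusted p = 0.0033). The groups did not overlap for these 3 genes, and Tgm2 was highest in CNT-7 rat 10 and both chemokines in CNT-7 rat 3.

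Pparg, Irf4, Egr2, Itgax and Flt1 were also higher after CNT-7, with log2FC values of 3.74, 1.70, 1.59, 1.503 and 1.503, although Pparg was at or below 1.31 CPM in every rat. Batf3, the one gene of these 14 whose call depended on single rats, lost it without CNT-7 rat 3 or CNT-T rat 2 or 12. Like both chemokines, Pparg, Irf4, Egr2, Itgax and Batf3 were highest in CNT-7 rat 3. The other called genes of the list were highest in another CNT-7-treated rat. The 4 tested genes not called were Mrc1, Alox15, Ch25h and Ccl24, with log2FC values of 0.58, 0.83, 0.63 and 0.06. Mrc1 was called without CNT-T rat 13 and Alox15 without CNT-T rat 1. Retnla, Pdcd1lg2 and Cdh1 did not pass the filter on low counts, with at most 4, 6 and 20 counts in any rat.

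Of 14 genes known to rise in macrophages given IL-10, all tested, 8 were higher (57.1%, beside 13.9% of all tested genes) and 1 was lower (7.14%, beside 14.0%) after CNT-7, with a median log2FC of 0.61. Between 7 and 10 were higher with 1 rat left out at a time. This list was also chosen with earlier results of these data known, so its share is not a test either. Besides Socs3, the called genes with the largest increases were Ddit4 (log2FC 2.14, adjusted p = 0.0023) and Nfil3, which had 51.5 to 88.5 CPM after CNT-7 and 22.4 to 28.4 CPM after CNT-T (log2FC 1.31, adjusted p = 0.0011). The haemoglobin scavenger receptor Cd163 went the other way and fell by 1.69 on the log2 scale (adjusted p = 0.0011). Cd163 is also a marker of resident macrophages, as is Gata6, which was higher after CNT-7 (log2FC 0.30), and Socs3 and Il1rn are each in one other list given above.

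**Figure D3:**
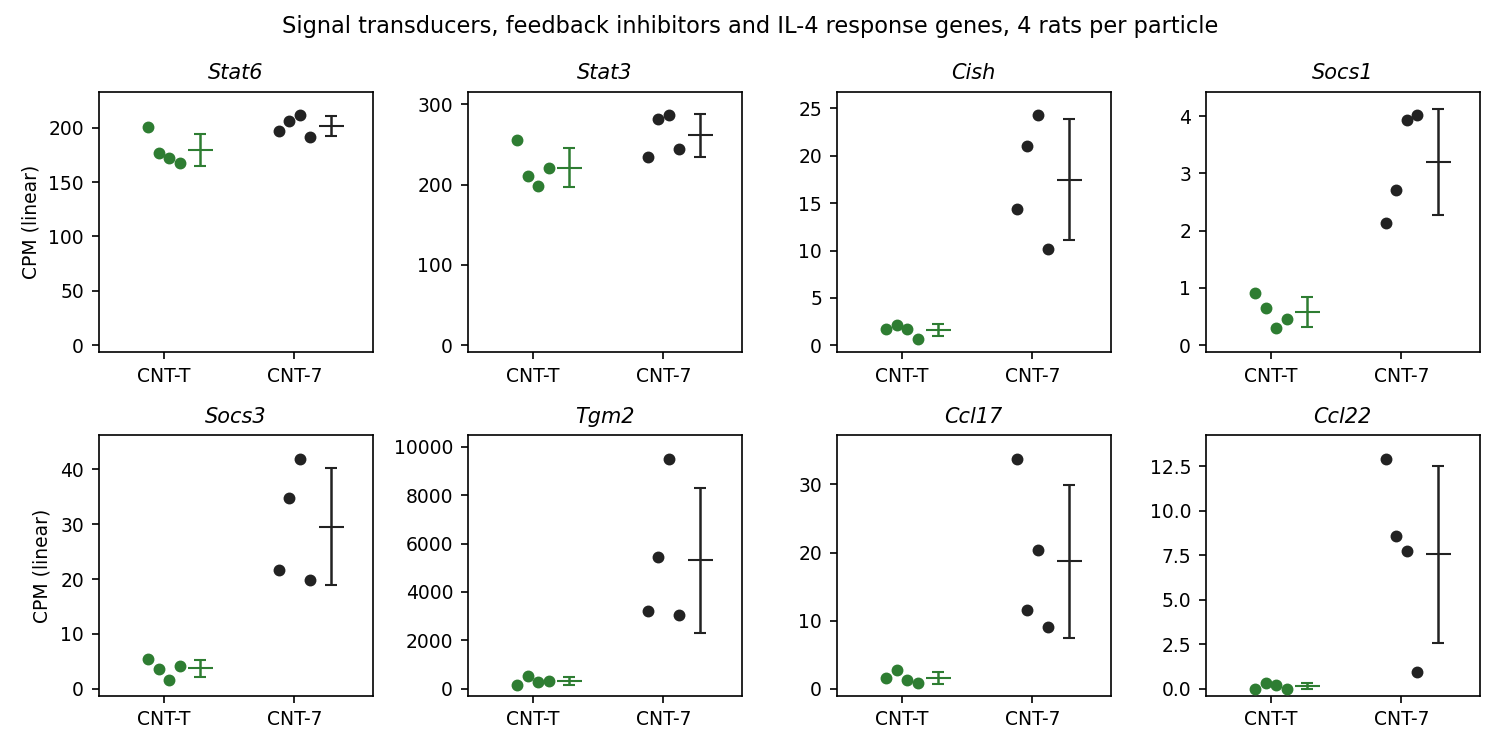
Level in CPM (linear scale) of the transcription factors Stat6 and Stat3, the feedback inhibitors Cish, Socs1 and Socs3, and the IL-4 response genes Tgm2, Ccl17 and Ccl22 in 4 CNT-T-treated rats (green) and 4 CNT-7-treated rats (black), with 1 point per rat and the mean ± SD beside the points. The groups overlap for Stat6 and Stat3 and are apart for the other 6 genes.

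The study gated peritoneal macrophages by surface staining apart from neutrophils and monocytes, and checked the purity of the sorted cells by microscopic stain. Markers of macrophages and of other cells were summed in each rat. The 10 macrophage markers, led by Lyz2, summed to 15600 to 22600 CPM in CNT-7-treated and 24400 to 34600 CPM in CNT-T-treated rats, and 7 of them were called. Without Lyz2 the sums were 2800 to 3420 and 3890 to 4540 CPM. Lyz2 itself was not called (log2FC -0.47, adjusted p = 0.1002). It was called lower with DESeq2, with the term for rat numbers and without CNT-T rat 13. Cd14 (log2FC 0.46) and Gata6 (log2FC 0.30, adjusted p = 0.0421) were higher, and Cd163, Adgre1, Fcgr1a, Cd68 and Csf1r were lower (log2FC values from -1.69 to -0.33). The call of Gata6 was lost without CNT-7 rat 5 or CNT-T rat 2 (log2FC 0.25 to 0.35 as each of the 8 rats was left out), and that of Cd68 without CNT-7 rat 3, 5 or 10 or CNT-T rat 1, 2 or 12 (-0.42 to -0.24 as each of the 8 was left out). The 11 T cell and innate lymphoid cell markers gave a sum of 19.4 to 61.4 CPM in CNT-7-treated and 7.25 to 19.4 CPM in CNT-T-treated rats. Il7r was the most abundant, and the rest summed to 7.78 to 15.2 and 5.85 to 7.63 CPM. Cd2, the other called marker of that list, had 1.38 to 3.43 CPM after CNT-7 and at most 0.297 CPM after CNT-T (log2FC 3.48, adjusted p = 0.00070). The other 4 tested markers, Gata3, Rora, Lck and Cd28, were not called, with log2FC values from -0.26 to 0.79, and Lck was called lower without CNT-7 rat 5. These cells express Il2rg, Il4r and Il7r, and their part in the receptor values was not tested.

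Dendritic cell markers, led by Zbtb46, summed to 5.68 to 11.8 CPM after CNT-7 and 4.37 to 8.38 CPM after CNT-T. Ccr7 and Clec9a were higher (log2FC values 3.80 and 1.76, adjusted p = 0.0111 and 0.0262), at no more than 3.15 and 1.98 CPM in any rat. Zbtb46, the other tested marker of the list, was not called (log2FC -0.22, adjusted p = 0.653). Its log2FC ran from -0.41 to -0.03 as each rat was left out. The part of dendritic cells was likewise not tested. B cell markers, led by Blk, reached at most 3.28 CPM and NK cell markers, led by Klrd1, at most 5.39 CPM, with Gzmb and Klrb1 at 0, and neither list gave a call. Eosinophil markers summed to 151 to 305 CPM after CNT-7 and 146 to 208 CPM after CNT-T, of which Siglec5 made up nearly all, and Epx and Prg3 were at 0. The rest reached 9.33 CPM in CNT-7 rat 3, which held 266 counts of Ccr3 and 17 of Il5ra against at most 19 and 1 in any other rat. Neutrophil markers, led by Csf3r, summed to 43.9 to 85.2 and 27.2 to 70.3 CPM, with Mpo at 0 and S100a8 lower after CNT-7 (log2FC -1.46, adjusted p = 0.0159). The other 5 tested neutrophil markers were not called with all rats, with log2FC values from -0.68 to 3.64, the highest being that of Retnlg. Retnlg had 51.3 CPM (1561 counts) in CNT-7 rat 3 and at most 1.83 CPM in any other rat, and its log2FC was -0.93 without that rat and 4.04 or 4.05, with a call, without CNT-7 rat 10 or 11. CNT-7 rat 3 was also the highest for Il1rl1, Il1r1 and Il18rap and the one rat with counts of Il4. Of the called IL-4 response genes, Ccl17, Ccl22, Pparg, Irf4, Egr2, Itgax and Batf3 were highest in it and the others were not. The part of eosinophils and neutrophils in these values was not tested. Mesothelial markers, led by Krt8, reached at most 0.938 CPM with Upk3b and Wt1 at 0, and fibroblast markers, led by Pdgfra, at most 1.47 CPM.

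Genes whose levels followed those of Il4r most closely over the 8 rats were Kdm5b, Arrdc4, Ier5, Enkur and Adora2a, with root-mean-square differences between 0.14 and 0.16 in centred log2 CPM among 10117 candidates. Their log2FC values ran from 1.02 to 1.22, near that of Il4r. For Il13ra1 the closest were Gpam, Clcn6, Arhgap12, Snrk and Ing1, with differences between 0.07 and 0.08 and log2FC values between -0.30 and -0.19. The difference between the particles is part of this distance, so log2FC values near those of Il4r and Il13ra1 follow from the selection. Both sets are a description of these rats.

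Several receptors of the IL-1 family lie together in the rat genome. The order of protein-coding genes is Il1r2, H3f3al3, Il1r1, Il1rl2, Il1rl1, Il18r1 and Il18rap in the RefSeq annotation of GRCr8, whereas the counts were made on the older Rnor_6.0. Of these, Il1r1 was not called, whereas Il1rl1, Il18r1 and Il18rap were higher after CNT-7 with log2FC values of 0.32, 0.79 and 2.24. Il4r is followed directly by Il21r, and the log2FC values of these neighbours were 1.07 and 0.98. Il10rb lies between Ifnar2 and Ifnar1, the chains of the type I interferon receptor, which were not called and had log2FC values of -0.01 and 0.02 (adjusted p = 0.977 and 0.876) against 0.44 for Il10rb.

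Promoter sequences of 300 bases, from 250 before to 50 after the annotated start, were taken from RefSeq (GRCr8) and matched 8 of the 10 receptors, the others being Il1r2 and Il17ra. They were searched on both strands for TTCNNNGAA, the palindrome bound by most STAT factors, and TTCNNNNGAA, the wider spacing that STAT6 prefers, which 8.87% and 7.28% of 33469 promoters hold. Shown are the promoters of the 3 receptors that were called higher after CNT-7. In Il10rb (chr11:44132386-44132685, plus strand) the capitals mark TTCNNNGAA, and in Il1rl1 (chr9:50203388-50203687, plus strand) they mark TTCNNNNGAA. In Il4r (chr1:189545525-189545824, plus strand) neither was found, and the capitals mark ATGNAAAT, an octamer-like motif searched after this sequence had been seen, which is present in 6.08% of promoters and at least 3 times in 8 of them (0.0239%), Il4r included. The promoters of Il13ra1, Il2rg, Il10ra, Il6st and Il1r1 held none of these motifs. A match describes the letters of the window and does not show that a factor binds.
Il4r promoter: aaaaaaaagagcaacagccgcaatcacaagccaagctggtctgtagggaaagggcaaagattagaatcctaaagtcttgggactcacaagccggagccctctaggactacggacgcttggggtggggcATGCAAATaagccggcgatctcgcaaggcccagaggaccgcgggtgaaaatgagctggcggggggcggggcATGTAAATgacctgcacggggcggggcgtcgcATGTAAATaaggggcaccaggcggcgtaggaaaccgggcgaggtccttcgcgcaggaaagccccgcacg
Il10rb promoter: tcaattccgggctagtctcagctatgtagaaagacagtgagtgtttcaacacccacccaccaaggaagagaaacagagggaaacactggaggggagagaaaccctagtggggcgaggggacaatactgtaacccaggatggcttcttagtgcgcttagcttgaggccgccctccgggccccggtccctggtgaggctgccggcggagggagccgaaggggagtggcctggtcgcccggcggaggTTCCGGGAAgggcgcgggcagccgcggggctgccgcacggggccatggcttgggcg
Il1rl1 promoter: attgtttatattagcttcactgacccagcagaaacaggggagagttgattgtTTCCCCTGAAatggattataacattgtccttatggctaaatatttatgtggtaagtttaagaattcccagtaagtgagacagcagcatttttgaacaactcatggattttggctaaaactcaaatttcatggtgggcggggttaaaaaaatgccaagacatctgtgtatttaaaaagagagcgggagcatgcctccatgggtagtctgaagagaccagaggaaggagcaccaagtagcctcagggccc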

How the data were processed

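The RNA-seq libraries come from sorted macrophages of 8 rats, 4 for each particle. The sample labels gave the particle and the number of each rat, and each library is a separate rat. The authors used ARMOR, with FastQC, Salmon (version not given in the sources used here) on the Ensembl cDNA sequences of Rnor_6.0, and tximeta, and the submitters' processing notes name Salmon, edgeR and Rnor_6.0. The authors deposited estimated counts per gene as whole numbers, without normalization, so that rounding changed no value. Length offsets were not used, and CPM is not corrected for transcript length, so the levels of different receptors were not compared. The sums and the most abundant gene of each marker list rest on CPM without that correction.

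Genes were tested in R 4.3.3 with the quasi-likelihood F test of edgeR 4.0.16 on the whole table, with TMM normalization, filterByExpr (minimum count 10, minimum total 15) and Benjamini-Hochberg adjustment over the 12124 genes that passed. The threshold of 0.10 is the one the study used. CPM uses TMM-normalized library sizes, and the SE is the absolute log2FC over the root of the F statistic. Ratios of counts were compared by exact permutation tests. The 3-count floor covers counting error only. The alternatives were upper-quartile scaling, DESeq2 1.42.0, no filter, at least 10 counts in every rat, a term for the range of rat numbers (5 and below, 10 and above), a threshold of 0.05, a 2-fold minimum, a pseudocount of 2 for the ratios, and each rat left out in turn. The use of these alternatives on the gene lists and their genes was added after seeing the data. Scripts were tested on simulated data, and figures were drawn with Python 3.11.15 and matplotlib 3.10.9.

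The 10 receptors and the gene lists were chosen with earlier results of these data known, so the share of a list that was called is not a test of that list. One gene of the planned IL-4 list is not reported here, and the counts of that list were recomputed without it. Named genes are all 10 receptors, their ligands and partner chains, up to 8 called genes of each list in order of absolute log2FC, the most abundant gene of each marker list, and the 5 genes closest to the called receptors with the largest rise and fall (mean of at least 1 CPM, prior count of 2). Stat6, Stat3, Traf3ip2, Batf3, Il3ra, Cd3e, Socs2, Socs4 to Socs7, Irs2, Ccr3, Il5ra, Retnlg, Gata3, Rora, Lck, Cd28, Ifnar1, Ifnar2 and the single markers given at or near 0 were singled out after their values were seen. So were Mrc1, Alox15, Ch25h, Ccl24, Retnla, Pdcd1lg2, Cdh1, Il20ra and Il22ra1.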

Additional observations from a re-analysis of the deposited data

Results flagged for a closer look

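Over both groups of the 10 receptors, 20 sets of 4 rats were examined for a rat far from the other 3, by its gap to the nearest rat divided by the range of the group and Dixon's critical value at 95%. Chance gives about 1 such set in 20, and 2 were found. Il10ra was lowest in CNT-7 rat 10, with 104 CPM (2869 counts) where the other CNT-7-treated rats had 124 to 128 CPM (ratio 0.845). Without this rat the log2 fold change of Il10ra was -0.02, and the gene was not called with or without it. Il1r2 was highest in CNT-T rat 2, with 4 counts (0.118 CPM) against 0 in the other CNT-T-treated rats (ratio 1). At such counts the ratio takes its highest value whenever a single rat of the group has any count.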

How the results depend on the processing

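No paired analysis was possible because the groups share no rat number. The number of genes called was 3383 and lay between 2578 and 3515 with each rat left out in turn, and it was 1006 with at least a 2-fold change. Of the 10 receptors 4 were called, compared with 6 with DESeq2 (Il1r2 and Il2rg besides), 4 with upper-quartile scaling or without a filter, 3 with at least 10 counts in every rat or with the term for rat numbers, 2 at a threshold of 0.05, 1 (Il4r) with at least a 2-fold change, and 2 to 4 with a rat left out. DESeq2 tested 16646 genes instead of 12124, Il1r2 among them, so the genes tested differed there as well as the method. No receptor changed direction under any alternative. Il4r (0.97 to 1.16 over the left-out rats) and Il10rb (0.37 to 0.50) were called under every refit and at 0.05. Il13ra1 lost its call without a filter (-0.24), with at least 10 counts in every rat (-0.24), with the term for rat numbers (-0.24), at 0.05 (-0.24) and with each rat left out (-0.28 to -0.17) except CNT-T rat 2 (-0.29). Il1rl1 lost it at 0.05 (0.32) and with 6 of the rats left out (0.25 to 0.33) but not without CNT-7 rat 11 (0.40) or CNT-T rat 12 (0.37). Il2rg gained it with DESeq2 (0.23) and with CNT-7 rat 10 or CNT-T rat 2 left out (0.28 each), and stayed without it with the other rats left out (0.19 to 0.28). The difference in the ratio of Il1r2 to Il1r1 was 3.21 to 4.40 and that of Il2rg to Il13ra1 0.36 to 0.58 over the left-out rats, and with 3 rats in a group some of these missed 0.05. The causes of these changes were not tested. Requiring at least a 2-fold change left 4 of 9 calls among the other receptors, 4 of 9 among the IL-10 response genes, 9 of 14 among the IL-4 response genes, and 0 of 2 in each list of signal carriers and adaptors, and at least 10 counts in every rat left 1 of 4 among the ligands. Of 52 genes called in the other lists, markers included, 44 were called under every alternative that tested them at 0.10, and none changed direction, while 24 of the 80 tested list genes that were not called gained a call under some alternative. Il1r2 and Il6, with at most 33 and 44 counts in a group, did not pass the filter and were called without it.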
